A study of Mus musculus with 30 samples.

Results

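The small heat shock proteins are a family of chaperones that bind unfolding proteins without using ATP, and 7 of them were followed here by symbol (Hspb1, Hspb2, Hspb3, Hspb6, Hspb7, Hspb8 and Cryab) together with the co-chaperone gene Bag3 and the inducible heat shock genes Hspa1a and Hsp90aa1. These 10 genes were chosen by name, with earlier results of these data known, from the 36103 genes of the count table. Poly(A) RNA had been sequenced from 4 organs of 5-week-old male mice of pure 129Pas background, namely the liver, the whole heart, the diaphragm and the gastrocnemius, which is a calf muscle. Mtm1KO mice carry a constitutive knock-out (Mtm1-/y) of the X-linked gene for the lipid phosphatase myotubularin, and WT mice were their littermates. There were 4 WT and 4 Mtm1KO libraries from the gastrocnemius, 4 and 3 from the diaphragm, 4 and 4 from the heart, and 3 and 4 from the liver. The question addressed was whether the loss of Mtm1, which causes severe skeletal muscle weakness, altered these chaperone genes in each organ.

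In striated muscle, small heat shock proteins sit mainly at the Z-disc and on intermediate filaments, where they hold stretched or damaged proteins in a state that other chaperones can refold or hand over for degradation. BAG3 bridges HSPB8 and its partners to HSP70, and this complex directs clients such as filamin C to autophagy. Inherited defects of CRYAB, HSPB8, BAG3 and HSPB1 cause myopathy or neuropathy in humans.

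Heat shock factors bind repeats of the letters GAA in alternating orientation, so the promoter windows of the 10 genes, each running from 250 bases before to 50 bases after the annotated start, were searched for the pairs GAANNTTC and TTCNNGAA. The 2 patterns read the same on both strands, and a run of 3 alternating repeats holds 1 of each with shared letters. RefSeq windows on GRCm38.p6 were found for 7 of the 10 genes, and Hspb2, Cryab and Hsp90aa1 had no entry. GAANNTTC was present in the windows of 6 of the 7 genes, against 9.04% of 27025 genes (7.86% of 32851 windows), and TTCNNGAA was present in none of them, against 9.6% of genes (8.52% of windows). Hspb6 has 2 annotated starts, of which the second had the match. The matches are printed 5′ to 3′ on the strand of the gene because they are what these promoters share in sequence, with the 8 matched letters in capitals and positions counted from the annotated start, which is base 1.
Hspb1, site from base -117 (chr5:135887792-135887819, + strand): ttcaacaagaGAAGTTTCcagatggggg
Hspb1, site from base -97 (chr5:135887812-135887839, + strand): gatgggggcaGAACCTTCctggccccgc
Hspb3, site from base -224 (chr13:113663883-113663910, - strand): tccccgaatgGAATTTTCaggcagaggg
Hspb6, site from base -120 of the second start (chr7:30553171-30553198, + strand): agtaattattGAAGTTTCtaaataagga
Hspb8, site from base 3 (chr5:116422845-116422872, - strand): gaagccaggaGAAGTTTCtaggctcgcg
Bag3, site from base 43, running to the end of the window (chr7:128523615-128523632, + strand): gatgggaccaGAAGTTTC
Hspa1a, site from base -104 (chr17:34972243-34972270, - strand): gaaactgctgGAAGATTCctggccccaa
The Hspb1 window held 2 matches, and its 250 bases before the start are shown to place one beside the other. Hspb7, the gene with the largest fold in the gastrocnemius, had no match, and its 250 bases are given for comparison.
Hspb1 (chr5:135887669-135887918, + strand): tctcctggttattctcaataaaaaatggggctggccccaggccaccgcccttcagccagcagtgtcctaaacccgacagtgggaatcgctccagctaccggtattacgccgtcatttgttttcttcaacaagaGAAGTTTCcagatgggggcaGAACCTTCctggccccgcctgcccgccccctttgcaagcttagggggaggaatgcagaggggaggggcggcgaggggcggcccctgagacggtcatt
Hspb7 (chr4:141420529-141420778, + strand): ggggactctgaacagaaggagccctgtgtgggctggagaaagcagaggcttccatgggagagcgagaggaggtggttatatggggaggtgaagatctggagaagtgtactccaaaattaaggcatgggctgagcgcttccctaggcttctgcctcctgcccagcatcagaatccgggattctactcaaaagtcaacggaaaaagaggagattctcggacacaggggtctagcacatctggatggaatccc
A match describes the letters only and was not tested as a binding site.

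The libraries held 24873817 to 44289343 counts, and no library duplicated another. Levels are given as counts per 1000000 (CPM), scaled for library composition. Mtm1 checked the labels: it was lower in every Mtm1KO library than in every WT library of its tissue, with log2 fold changes of -2.07 (SE 0.10, edgeR adjusted p = 2.1e-05) in gastrocnemius, -2.26 (SE 0.17, adjusted p = 0.027) in diaphragm and -2.59 (SE 0.11, adjusted p = 2.6e-05) in heart. In liver the value was -1.60 (SE 0.23), with an adjusted p of 0.37 by edgeR and 1.3e-06 by DESeq2. The liver marker Alb (albumin) stood at 2.4 to 61 CPM in the gastrocnemius, but the diaphragm libraries ranged from 294 to 33827 CPM. In the liver libraries themselves Alb was at 87762 to 105793 CPM in WT and 99520 to 121837 CPM in Mtm1KO. Hspb2 and Cryab lie head to head on chromosome 9 (50751078 to 50752354, minus strand, and 50751325 to 50756636, plus strand) and share 252 exon bases, and whether reads were assigned by strand is not given in the sources used here. The authors kept only reads assigned to a single gene, so reads over those bases may be missing from both counts.

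In the gastrocnemius, 6 of the 10 genes rose in Mtm1KO mice and none fell, by edgeR at an adjusted p under 0.05. Over all 15456 genes tested, 29% passed in either direction, 14.1% being higher and 14.9% lower, and the 10 genes had a median log2 fold change of 0.70 against 0.02 for all genes. All 10 estimates were positive, and for 5 genes every Mtm1KO library lay above every WT library, as it did for 14.7% of all genes. These 5 genes (Hspb7, Hspb1, Hspa1a, Cryab and Hspb8) also had log2 fold changes over 1, and 4.84% of all genes rose past the threshold with a log2 fold change over 1. In bulk tissue, a change in the share of a cell type cannot be told apart from a change in RNA per cell.

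Hspb7, a chaperone of striated muscle that binds filamin C, stood at 793, 577, 431 and 719 CPM in the 4 WT libraries and at 2849, 1549, 1756 and 1591 CPM in the 4 Mtm1KO libraries. The groups did not overlap, and Mtm1KO library 1 was well above the other 3. The log2 fold change was 1.62 (SE 0.24, edgeR adjusted p = 0.0011), a 3.07-fold rise. Without that library it was 1.38 (adjusted p = 0.0017).

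Hspb1, the chaperone HSP27, was measured at 27.1, 21.2, 14.8 and 24.2 CPM in WT and at 88.3, 45.4, 62.7 and 42.6 CPM in Mtm1KO. All Mtm1KO values exceeded all WT values. The log2 fold change was 1.45 (SE 0.25, edgeR adjusted p = 0.0024). Of the 50-base stretches of its transcripts, 50.1% also occur in another annotated gene, mostly the pseudogene Hsp25-ps1, and the authors kept only uniquely mapped reads, so its level is uncertain.

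Cryab, which encodes αB-crystallin, a partner of desmin filaments, had 523, 451, 422 and 524 CPM in WT and 1614, 1428, 946 and 908 CPM in Mtm1KO. The lowest Mtm1KO value was well above the highest WT value. Cryab rose 2.55-fold (log2 fold change 1.35, SE 0.19, edgeR adjusted p = 0.00085), the smallest adjusted p of the 10 genes.

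Hspb8, the member that pairs with BAG3, was at 359, 379, 336 and 349 CPM in WT and at 948, 731, 563 and 610 CPM in Mtm1KO. WT libraries lay close together, while Mtm1KO libraries were higher and more spread. The gene rose 2-fold (log2 fold change 1.00, SE 0.15, edgeR adjusted p = 0.0011).

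The other 3 small heat shock protein genes did not pass the test. Hspb6, which encodes HSP20 and is abundant in all striated muscle, was at 623, 549, 493 and 607 CPM in WT and at 914, 779, 586 and 640 CPM in Mtm1KO, with overlapping groups and a log2 difference of 0.36 (SE 0.14, edgeR adjusted p = 0.079), which became 0.46 (adjusted p = 0.029) without Mtm1KO library 3. Hspb3 and Hspb2, which form a complex with each other in muscle, differed by 0.19 (SE 0.12, adjusted p = 0.24) and 0.11 (SE 0.13, adjusted p = 0.54) on the log2 scale. Hspb3 had 26.8, 28.1, 25.7 and 28.6 CPM in WT and 39, 30.1, 30.4 and 25.5 CPM in Mtm1KO, so the lowest value of all was an Mtm1KO library. Hspb2 had 94.7, 85.4, 76.5 and 110 CPM in WT and 116, 94.6, 83.6 and 101 CPM in Mtm1KO. Summed over the 7 small heat shock protein genes, the level was 1800 to 2447 CPM in WT and 3918 to 6569 CPM in Mtm1KO.

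**Figure D1:**
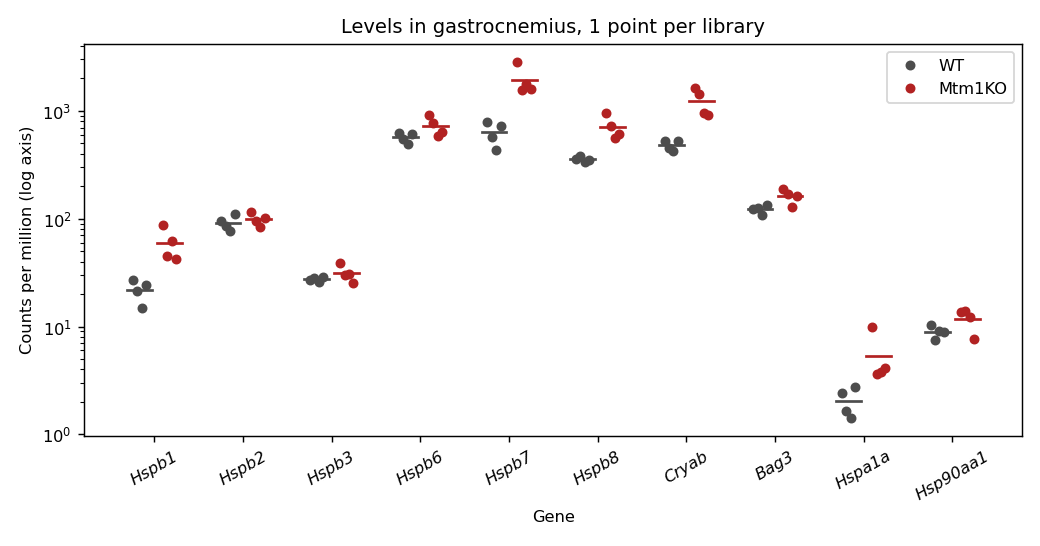
Levels of the 10 genes in gastrocnemius, in CPM on a log axis, with 1 point per library (4 WT in grey, 4 Mtm1KO in red) and a line at each group mean. Hspb7, Hspb1, Cryab, Hspb8 and Hspa1a have no overlap between the groups, Bag3 overlaps at 127 CPM in 1 Mtm1KO library, and Hspb2, Hspb3, Hspb6 and Hsp90aa1 overlap.

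Bag3, the co-chaperone that joins small heat shock proteins to HSP70, was at 124, 125, 109 and 134 CPM in WT and at 187, 170, 127 and 164 CPM in Mtm1KO. Mtm1KO library 3 lay within the WT range and the other 3 lay above it. Bag3 rose 1.32-fold (log2 fold change 0.40, SE 0.12, edgeR adjusted p = 0.028). The call was lost when WT library 1, 2 or 3 or Mtm1KO library 1, 2 or 4 was left out, with adjusted p up to 0.079.

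Hspa1a, a stress-inducible HSP70 gene, was low in WT (2.42, 1.65, 1.41 and 2.73 CPM) and stood at 9.8, 3.6, 3.82 and 4.09 CPM in Mtm1KO. Mtm1KO library 1 was the high one, and the groups did not overlap. The log2 fold change was 1.38 (SE 0.36, edgeR adjusted p = 0.018), and it was 0.90 (adjusted p = 0.026) without that library. Without WT library 2 the adjusted p was 0.058. Its near-identical neighbour Hspa1b, 9951 bases away, rose 3.56-fold (log2 value 1.83, SE 0.38, adjusted p = 0.0059). Hspa1a shares 66.3% of its 50-base stretches with other genes, mostly Hspa1b, with which it also has 247 of the 250 bases before the start in common. The predicted gene Gm20481 overlaps 564 of its exon bases on the other strand. The authors kept only uniquely mapped reads assigned to a single gene, so reads may be missing and its level is uncertain.

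Hsp90aa1, which encodes the inducible cytosolic HSP90, was at 10.3, 7.57, 9.02 and 8.94 CPM in WT and at 13.5, 14, 12.3 and 7.67 CPM in Mtm1KO. Library 4 of the Mtm1KO group was among the WT values. The log2 difference of 0.40 (SE 0.18) had an edgeR adjusted p of 0.12, and without library 4 the value was 0.57 (adjusted p = 0.0077). For this gene, 47.5% of 50-base stretches occur in another gene, chiefly Gm12346.

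Mtm1KO library 1 held the highest value of its group for 9 of the 10 genes, and WT library 3 the lowest of its group for 9. Cryab, Hspb1, Hspb7 and Hspb8 were called with any 1 of the 8 libraries left out.

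The rest of the chaperone system was read from gene lists of known family members and partners, counted at the same threshold. Over all genes tested in gastrocnemius, 14.1% rose and 14.9% fell at that threshold, which is the background for each list. Of the 14 other HSP70 and HSP110 genes, 2 rose (Hspa1b, above, and Hspa2, log2 fold change 0.71) and 2 fell (Hspa12b, -0.69, and the mitochondrial Hspa9, -0.24). No other HSP90 gene or co-chaperone rose and 4 of 17 fell, among them Unc45b and Smyd1, which serve myosin folding (both -0.31), the HSP90-binding immunophilin Fkbp4 (-0.45) and the mitochondrial Trap1 (-0.48). Of 22 DNAJ genes, which stimulate HSP70, 4 rose and 6 fell, with Dnaja4 at 0.62 and Dnajb5 at -0.72. None of 10 chaperonin genes passed by edgeR, with values of -0.02 for Tcp1 and 0.02 for Cct5. Of 3 heat shock factor genes tested, Hsf1 fell by 0.29 on the log2 scale (SE 0.10, adjusted p = 0.048), and Hsf2 (0.24) and Hsf4 (0.26) did not pass, nor did Hsbp1 (-0.01), which encodes a protein that binds heat shock factors. Hspbap1, which encodes a protein that binds HSPB1 and is not itself a small heat shock protein, rose by 0.56.

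Of the 18 other BAG family genes and BAG3 partners in assisted autophagy, 3 rose and 3 fell, near the shares of 14.1% and 14.9% over all genes. Their median log2 fold change was -0.08, against 0.02 for all genes. Flnc, the gene for filamin C, the best-known client of this complex, was at 1129, 1115, 805 and 1159 CPM in WT and at 2952, 2181, 2206 and 1644 CPM in Mtm1KO. The groups were apart, and Flnc rose by 1.09 on the log2 scale (SE 0.18, edgeR adjusted p = 0.0018). Synpo2, which helps the complex form autophagosomes, was at -0.41, the late endosomal Rab7 at -0.51 and Tsc1, an inhibitor of mTORC1, at -0.30, all past the threshold. Of 11 Z-disc and intermediate filament genes whose products small heat shock proteins bind, 6 rose and 2 fell, including Nes (1.18), Actn2 (0.88) and Vim (0.71) among those that rose and Synm (-0.60) among those that fell.

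Markers of other states and cells also differed in these libraries, in which 14.1% of all genes rose and 14.9% fell. Of 12 immediate-early genes, 5 rose and 1 fell, namely Nr4a1 (log2 fold change -1.45, edgeR adjusted p = 0.01). Their summed level was 535 to 858 CPM in WT and 297 to 863 CPM in Mtm1KO. Mtm1KO library 1 was the highest of its group for Egr1 (89.1 CPM against 26.9 to 38.1), Junb (39.1 against 10.7 to 16.9) and Atf3 (86.8 against 11.7 to 42.9), and also for Nr4a1 (260 against 92.3 to 127). Of 10 macrophage markers, 9 rose, with a summed level of 57.4 to 102 CPM in WT and 170 to 206 CPM in Mtm1KO, and Adgre1 was at 1.65 to 3.27 and 4.31 to 6 CPM. Of 8 fibroblast markers 5 rose, with summed levels of 3010 to 8110 and 3521 to 10021 CPM, and of 11 white adipocyte markers 6 rose and 1 fell, with sums of 4093 to 5367 and 3241 to 4399 CPM. Fast-fibre genes summed to 185460 to 222067 CPM in WT and 116309 to 138356 CPM in Mtm1KO, and 9 of 11 were called lower and 2 higher. Of 9 slow-fibre genes, 1 fell, of 6 endothelial markers 2, and of 5 smooth muscle markers 1. Of 4 cardiomyocyte markers tested 3 rose, namely Myl4 (log2 fold change 1.99), Tnnt2 (1.67) and Tnni3 (0.82), and 1 was not called. Summed over the 8 listed, the level was 91.7 to 356 CPM in WT and 73.7 to 246 CPM in Mtm1KO. Whether their RNA came from cardiac cells was not tested. Of 15 hepatocyte markers 1 rose and 1 fell. The part of these cells and states in the chaperone values was not tested.

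In the diaphragm, none of the 10 genes passed the edgeR threshold, where 0.0119% of 16796 genes did in either direction and 0% were higher. All 10 estimates were nevertheless positive, with a median log2 difference of 0.67 against -0.01 for all genes. At an unadjusted p under 0.05, 5 of the 10 genes were called, all higher in Mtm1KO, against 6.58% of all genes in that direction. By DESeq2, 2 of them were called higher (Hspb1, adjusted p = 0.0043, and Hspb8, adjusted p = 0.012), against 1.72% of all genes. For the same 2 genes, every Mtm1KO library lay above every WT library, as in 5.4% of all genes.

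Hspb1 was at 25, 37, 36.7 and 27.1 CPM in WT diaphragm and at 179, 44.7 and 91.5 CPM in Mtm1KO libraries 1, 2 and 4. The 3 Mtm1KO values were spread over a wide range above the WT values. The log2 difference was 1.74 (SE 0.43, edgeR adjusted p = 0.28). Hspb8 was at 221, 270, 248 and 218 CPM in WT and at 541, 299 and 503 CPM in Mtm1KO, a log2 difference of 0.90 (SE 0.22, edgeR adjusted p = 0.28). Cryab was at 614, 969, 1074 and 636 CPM in WT and at 3067, 892 and 1970 CPM in Mtm1KO, a difference of 1.26 (SE 0.43, adjusted p = 0.38). In both genes Mtm1KO library 2 was the low one, and for Cryab it lay within the WT range. Hspb7 had 832, 1226, 1463 and 854 CPM in WT and 2576, 1299 and 2398 CPM in Mtm1KO, a difference of 0.93 (SE 0.32, adjusted p = 0.38). Hspa1a had 2.1, 3.6, 2.84 and 3.19 CPM in WT and 8.61, 3.46 and 6.04 CPM in Mtm1KO, a difference of 1.04 (SE 0.33, adjusted p = 0.35). For the other 5 genes the estimates ran from 0.21 for Bag3 to 0.44 for Hspb3, with overlapping groups.

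Mtm1KO library 2 was the lowest of its group for 10 of the 10 genes, and library 1 the highest for 9. Without library 2, edgeR called Hspb1 (log2 fold change 2.10, adjusted p = 0.048) and Hspb8 (1.12, adjusted p = 0.042), where 0.937% of all genes passed. Library 2 also had the highest Alb level, at 33827 CPM, while Mtm1KO libraries 1 and 4 had 1685 and 565 CPM. In WT, Alb was 294 CPM in library 3 and 17700 to 26579 CPM in libraries 1, 2 and 4. Summed hepatocyte markers ranged from 653 to 49251 CPM in WT and from 1130 to 65506 CPM in Mtm1KO. Within the libraries under 2000 CPM of Alb (1 WT and 2 Mtm1KO), the ratio of Mtm1KO to WT was 3.69 for Hspb1, 2.34 for Cryab, 2.1 for Hspb8 and 1.7 for Hspb7. Within those above it (3 WT and 1 Mtm1KO), the ratios were 1.5, 1.21, 1.26 and 1.34 in the same order. The set above it holds a single Mtm1KO library, and some of its values were nearly equal, such as 20.1 and 20 CPM for Hspb3. No test was run within a set. With the log2 Alb level as a covariate, a fit chosen after seeing the data, the differences were 1.53 for Hspb1 (edgeR adjusted p = 0.16), 1.02 for Cryab (0.23), 0.80 for Hspb8 (0.14) and 0.77 for Hspb7 (0.17). Fibroblast markers summed to 2306 to 4918 CPM in WT and 5175 to 10247 CPM in Mtm1KO diaphragm, and macrophage markers to 396 to 880 and 423 to 1000 CPM, with no gene of either list called by edgeR. DESeq2 called 4 of the 8 fibroblast markers higher, namely Lum (adjusted p = 0.0054), Col1a1 (0.016), Col3a1 (0.019) and Col1a2 (0.031), and none of the 10 macrophage markers. The part of these cells in the chaperone values was not tested.

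**Figure D2:**
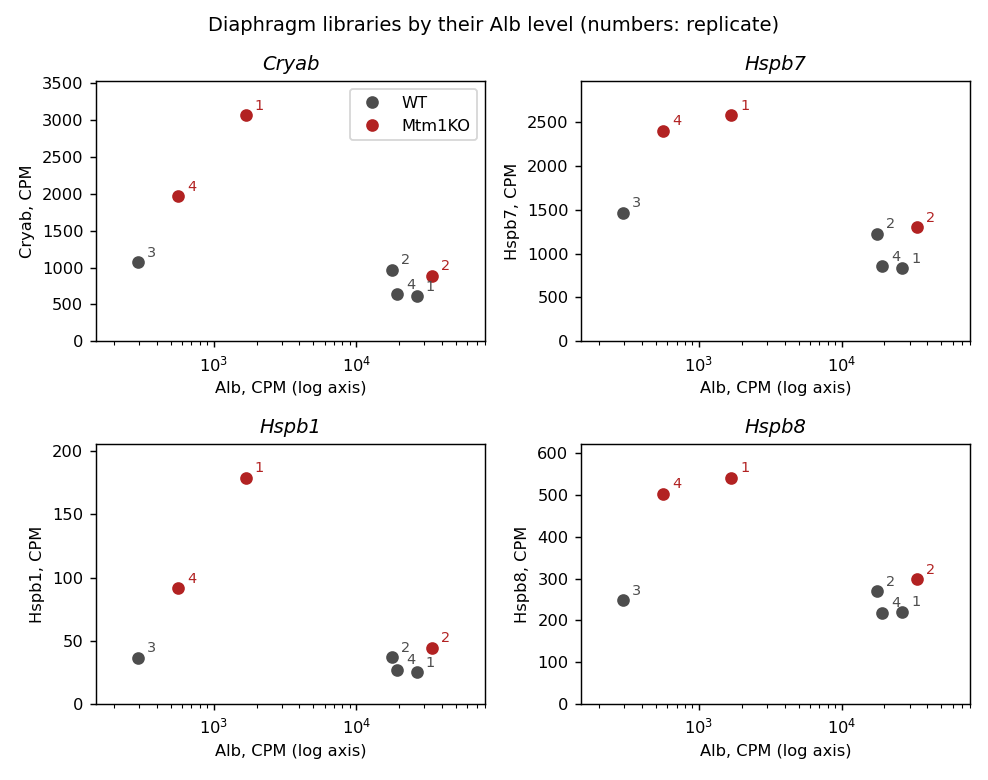
Levels of Cryab, Hspb7, Hspb1 and Hspb8 (vertical axes, CPM) against Alb (horizontal log axis, CPM) in the 7 diaphragm libraries, numbered by replicate, with WT in grey and Mtm1KO in red. Mtm1KO libraries 1 and 4, with 1685 and 565 CPM of Alb, lie highest in all 4 panels, and Mtm1KO library 2, with 33827 CPM of Alb, lies near the WT libraries.

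In the heart, none of the 10 genes was called by edgeR or by DESeq2, and none had an unadjusted p under 0.05. Over all genes, edgeR called 0.00656% of 15238 and DESeq2 called 0.461%, and 8.88% had an unadjusted p under 0.05 by edgeR. The estimates were positive for 6 genes, with a median of 0.01 on the log2 scale. Cryab was at 918, 940, 870 and 1012 CPM in WT and at 851, 927, 1082 and 889 CPM in Mtm1KO, a difference of 0.00 (SE 0.10, adjusted p = 0.99). The groups covered the same range. Hspb7 had a difference of 0.08 (SE 0.15), Hspb8 of 0.06 (SE 0.11) and Bag3 of -0.04 (SE 0.09). Hspb2 had the value farthest below 0, at -0.47 (SE 0.21, adjusted p = 0.55), with 48.5, 48.7, 51.1 and 74 CPM in WT and 31.4, 58, 33.6 and 37.9 CPM in Mtm1KO. Mtm1KO library 2 lay inside the WT range and the other 3 below it. Hspb6 was at 495, 628, 502 and 392 CPM in WT and at 547, 570, 734 and 683 CPM in Mtm1KO, a difference of 0.33 (SE 0.16, adjusted p = 0.55). WT library 4 had 11.7% of its counts from mitochondrial genes, against 15.9% to 17.5% in Mtm1KO, and 47.3 CPM of Hspb1, against 29.3, 25.8 and 24.6 CPM in the other WT libraries. Without it, edgeR again called 0 of the 10 genes. DESeq2 called 7 of 11 white adipocyte markers lower, 4 of 15 hepatocyte markers higher and 1 of 10 macrophage markers lower, and edgeR none. The part of these cells in the chaperone values was not tested.

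In the liver, Hspb1 and Hspb3 were below the count filter. None of the 8 genes tested was called by edgeR or DESeq2 or had an unadjusted p under 0.05, which 4.24% of all genes had. Over all genes, edgeR called 0 of 14305 and DESeq2 called 0.149%, so the missing calls do not set these 8 genes apart. Mtm1 itself was called there by DESeq2 but not by edgeR. Hspb8, the most abundant of the 10 genes there, was at 205, 134 and 181 CPM in WT and at 163, 170, 174 and 148 CPM in Mtm1KO. The Mtm1KO libraries lay within the WT range, and the log2 difference was -0.08 (SE 0.15, edgeR adjusted p = 0.97). Bag3 was at 54, 23.1 and 25.4 CPM in WT and at 45.7, 21.5, 32 and 36.7 CPM in Mtm1KO (difference -0.01, SE 0.33). Hspb7 had an estimate of 1.21 with an SE of 0.93, from levels of 0.18 to 3.32 CPM.

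**Figure D3:**
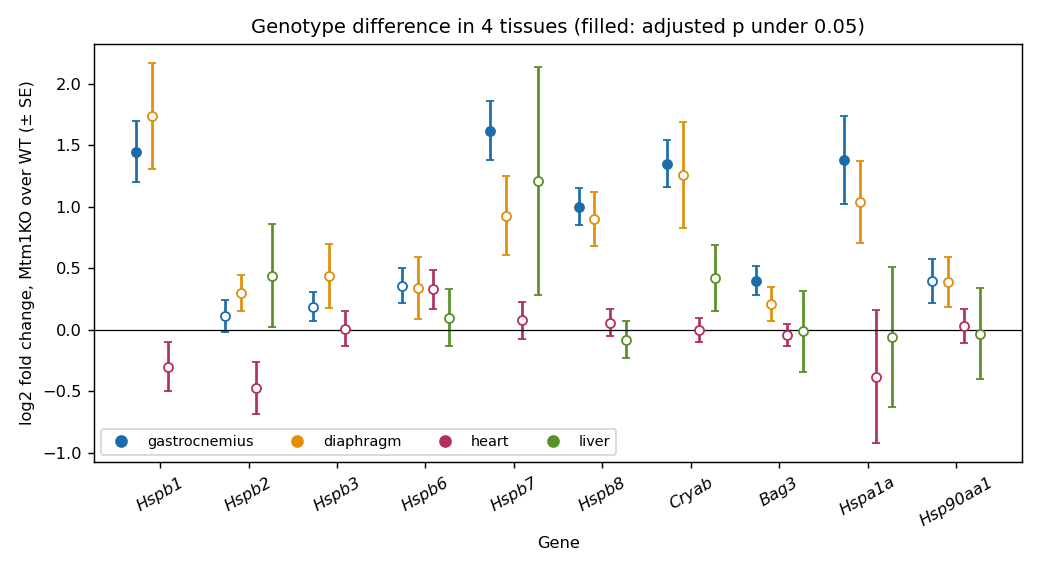
Log2 fold change of Mtm1KO over WT (vertical axis) with its standard error for the 10 genes in gastrocnemius (blue), diaphragm (orange), heart (magenta) and liver (green). Filled points passed an edgeR adjusted p under 0.05, which happened in gastrocnemius for 6 genes and in no other tissue, and Hspb1 and Hspb3 have no liver point because they were not tested there.

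Whether the genotype difference itself was unequal between tissues was tested with an interaction term. Between heart and gastrocnemius it was unequal for 4 of the 10 genes, against 19.8% of 16627 genes in either direction, and in all 4 it was lower in heart. The difference of log2 fold changes, heart minus gastrocnemius, was -1.74 for Hspb1 (SE 0.35, edgeR adjusted p = 0.0038), -1.52 for Hspb7 (SE 0.30, adjusted p = 0.0036), -1.33 for Cryab (SE 0.23, adjusted p = 0.0015) and -0.92 for Hspb8 (SE 0.20, adjusted p = 0.0056). Bag3 (-0.42, SE 0.15, adjusted p = 0.065) and Hspa1a (-1.74, SE 0.68, adjusted p = 0.081) did not pass, but Bag3 was called without Mtm1KO gastrocnemius library 3 (-0.54, adjusted p = 0.012) and Hspa1a without heart library 2 of the WT (-2.03, adjusted p = 0.03) or the Mtm1KO group (-2.13, adjusted p = 0.041). Between heart and diaphragm no gene of the 10 passed by edgeR, as against 0.00573% of all genes. There, DESeq2 called 1 of the 10 and 1.24% of all genes. The gene was Hspb1 (-2.03, SE 0.49 and adjusted p = 0.19 by edgeR, adjusted p = 0.01 by DESeq2). Without diaphragm Mtm1KO library 2, edgeR called 3 of the 10, Hspb1 among them, and 1.55% of all genes. Between gastrocnemius and diaphragm no gene of the 10 passed by edgeR, as against 0.28% of all genes, or by DESeq2, as against 2.04%. The estimates of that difference were 0.69 (SE 0.42) for Hspb7, 0.09 (SE 0.47) for Cryab, 0.11 (SE 0.28) for Hspb8 and -0.28 (SE 0.53) for Hspb1.

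The WT libraries gave the normal distribution of these genes over the 4 tissues, here in CPM per kilobase of exon so that genes can also be set side by side. Cryab was the most abundant of the 10 in gastrocnemius, at 357 ± 39 (SD, n = 4), and in diaphragm, at 473 ± 129 (n = 4), and Hspb7 in heart, at 771 ± 86.2 (n = 4). In liver the most abundant was Hspb8, at 108 ± 22 (n = 3). Between gastrocnemius and liver all 10 genes were called (9 higher in gastrocnemius, edgeR, against 79.5% of 17725 genes called in either direction), between diaphragm and liver 9 (background 76.1%) and between heart and liver 8 (76.4%). Between the striated muscles, 4 were called between gastrocnemius and diaphragm (background 54.4%), 8 between gastrocnemius and heart (61.3%) and 5 between diaphragm and heart (51.7%). The Alb level of WT diaphragm libraries 1, 2 and 4 (17700 to 26579 CPM) touches each diaphragm value. Library 3 alone as the WT diaphragm was an alternative chosen after seeing the data. A lone library gives no spread of its own, so only log2 differences are given for it below.

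Cryab followed the order heart (527 ± 32.2), diaphragm, gastrocnemius and liver (2.39 ± 0.295). Heart and diaphragm were not called apart (log2 -0.16 for diaphragm minus heart, SE 0.17, edgeR adjusted p = 0.46), nor were gastrocnemius and diaphragm (-0.40, SE 0.17, adjusted p = 0.06). Heart was above gastrocnemius (adjusted p = 0.011, but 0.065 in 1 fit of all 30 libraries). The gastrocnemius and diaphragm values were called apart when diaphragm library 1 or 4 or heart library 1 or 4 was left out, with adjusted p down to 0.0096. With diaphragm library 3 alone, gastrocnemius minus diaphragm was -0.82 for Cryab and diaphragm minus heart was 0.23, on the log2 scale. Hspb7 had the order heart, diaphragm (335 ± 89.6), gastrocnemius (250 ± 63.6) and liver (0.24 ± 0.142). Heart was above diaphragm (log2 difference -1.20 for diaphragm minus heart, SE 0.30, adjusted p = 0.0039, but only -0.77 with diaphragm library 3 alone). The skeletal muscles were not called apart (adjusted p = 0.24).

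Hspb3 and Hspb2 had the opposite order, with gastrocnemius first. Hspb3 was at 38.5 ± 2.07 in gastrocnemius, 23.9 ± 5.33 in diaphragm and 8.6 ± 1.22 in heart, and each step passed (gastrocnemius minus diaphragm 0.68, SE 0.16, adjusted p = 0.0028, and diaphragm minus heart 1.48, SE 0.17, adjusted p = 8.4e-06). With diaphragm library 3 alone, the first step was 0.31 and the second 1.83. In WT liver it had 0 to 1 counts per library, and set against a floor of 3 counts per library it was at least 218-fold higher in gastrocnemius, at least 135-fold in diaphragm and at least 48.6-fold in heart. Hspb2 was at 121 ± 19.3 in gastrocnemius, 68.1 ± 3.61 in diaphragm, 55.6 ± 12.3 in heart and 0.462 ± 0.138 in liver. Gastrocnemius was above diaphragm (log2 0.83, SE 0.15, adjusted p = 0.00039, but 0.68 with diaphragm library 3 alone). There was no call between diaphragm and heart (adjusted p = 0.12), which became a call without heart library 4 (adjusted p = 0.0035). Hspb6 ran from 272 ± 28.9 in gastrocnemius through 249 ± 52.4 in diaphragm and 183 ± 35.3 in heart to 5.05 ± 0.96 in liver. Its gastrocnemius and diaphragm values were not called apart (adjusted p = 0.57). Its diaphragm and heart values were at the threshold (adjusted p = 0.049), a call lost under most alternatives, with adjusted p up to 0.09. With diaphragm library 3 alone, diaphragm minus heart was 0.87 on the log2 scale.

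Hspb8 and Bag3, the pair that work in one complex, were also present in liver. Hspb8 was at 201 ± 10.5 in gastrocnemius, 153 ± 20.5 in heart, 108 ± 22 in liver and 104 ± 10.9 in diaphragm. Neighbouring values differed between gastrocnemius and heart (log2 0.40, SE 0.14, edgeR adjusted p = 0.023) and between heart and liver (0.50, SE 0.15, adjusted p = 0.008), but not between diaphragm and liver (-0.05, SE 0.15, adjusted p = 0.77). The call between gastrocnemius and heart was lost without gastrocnemius library 2 or heart library 1 or 4, with no count filter, or in the fit of all 30 libraries, with adjusted p up to 0.078. Bag3 was at 66 ± 4.5 in heart, 52.8 ± 4.75 in gastrocnemius, 51.9 ± 4.34 in diaphragm and 16.2 ± 8.05 in liver, with no call among the striated muscles (adjusted p = 0.19, 0.93 and 0.17) and each of them above liver. Without WT liver library 1, in which Bag3 was high, heart was called above gastrocnemius (adjusted p = 0.0094) and diaphragm (adjusted p = 0.0078), in a fit whose spread is estimated over the 4 tissues together. Hspb1 was not called between any striated muscles (23.3 ± 5.65 in gastrocnemius, 25.9 ± 5.03 in diaphragm and 25.7 ± 8.49 in heart, adjusted p = 0.58 or more) and at 0.239 ± 0.0528 in liver.

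Hsp90aa1 was the one gene with its highest WT level in liver, at 8.66 ± 3.94, followed by heart (6.76 ± 0.793), diaphragm (4.98 ± 1.22) and gastrocnemius (2.51 ± 0.306). Heart and liver (adjusted p = 0.19) and heart and diaphragm (adjusted p = 0.12) were not called apart. Heart and diaphragm were called without liver library 1 (adjusted p = 0.031), in a fit whose spread is estimated over the 4 tissues together. Gastrocnemius was below diaphragm (log2 -0.99, SE 0.23, adjusted p = 0.0024). Hsp90aa1 was at 28.4, 26.6 and 19.2 CPM in WT diaphragm libraries 1, 2 and 4, which were high in Alb, and lowest, at 17.6 CPM, in library 3. With library 3 alone the difference between gastrocnemius and diaphragm was -0.62 on the log2 scale. Hspa1a was the least abundant of the 10 in each striated muscle, at 0.841 ± 0.186 in diaphragm, 0.762 ± 0.233 in gastrocnemius and 0.278 ± 0.135 in heart, and stood at 0.162 ± 0.0476 in liver. Its diaphragm and gastrocnemius levels (adjusted p = 0.75) and its heart and liver levels (adjusted p = 0.12) were not called apart, although heart was called above liver without heart library 2 (adjusted p = 0.01). Gastrocnemius was above heart (log2 1.46, SE 0.36, adjusted p = 0.0031).

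**Figure D4:**
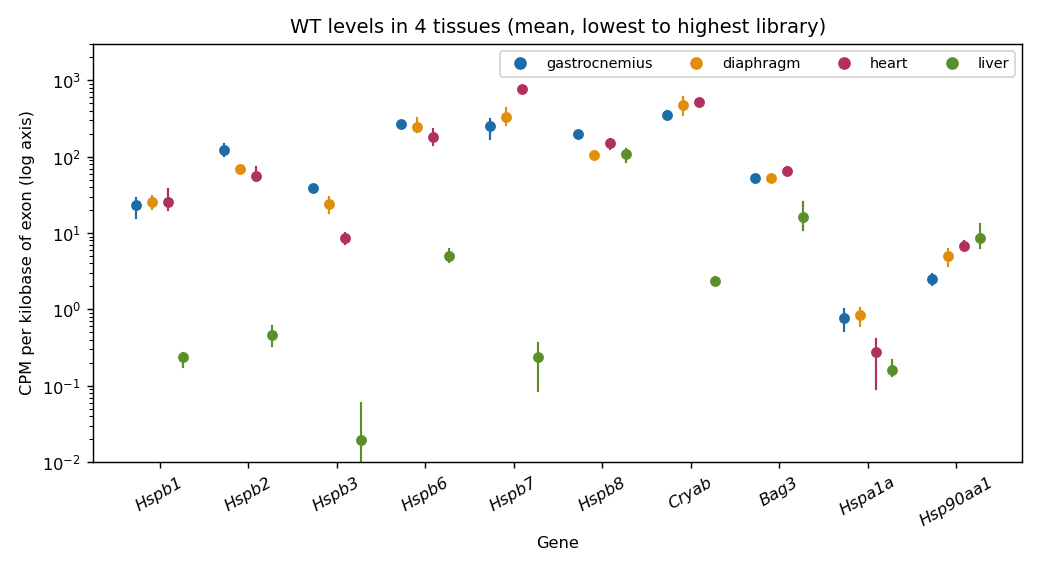
WT levels of the 10 genes in CPM per kilobase of exon (log axis) in gastrocnemius, diaphragm, heart and liver, with a point at the mean and a line from the lowest to the highest of the 3 or 4 libraries (a value of 0 is drawn at the lower edge). Hspb7 and Cryab are highest in heart, Hspb2 and Hspb3 in gastrocnemius, and Hspb8 reaches 108 in liver where Cryab is at 2.39.

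Hspb2 and Cryab are transcribed in opposite directions from neighbouring starts, and the ratio of their levels per length put both on one scale. In gastrocnemius the ratio of Cryab to Hspb2 was 3.12, 2.98, 3.11 and 2.69 in WT and 7.83, 8.51, 6.38 and 5.06 in Mtm1KO. The WT values were close together and all below the Mtm1KO values. The means were 2.97 ± 0.201 and 6.95 ± 1.54 (SD, n = 4 each), with an exact two-sided permutation p on the log2 ratios of 0.0286, the smallest that 4 against 4 libraries allow, and 0.0858 after adjustment over 3 tissues. In diaphragm the ratio was 6.9 ± 1.65 in WT (n = 4) and 13.1 ± 5.23 in Mtm1KO (n = 3), and in heart 9.72 ± 1.45 and 13.9 ± 3.85 (n = 4 each), with an exact permutation p of 0.114 in both. In heart, Mtm1KO library 2, at 9.02, lay within the WT range of 7.71 to 10.9. Mtm1KO libraries 1, 3 and 4, at 15.3, 18.2 and 13.2, lay above it. Leaving library 2 out separates the groups and so fixes the exact p at its smallest possible value, and no conclusion is drawn from it. Of the 50-base stretches of Hspb2 and Cryab, 24.4% and 13.3% occur in the other gene. The authors kept only reads assigned to a single gene, so reads from the shared stretch may be missing from both counts.

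**Figure D5:**
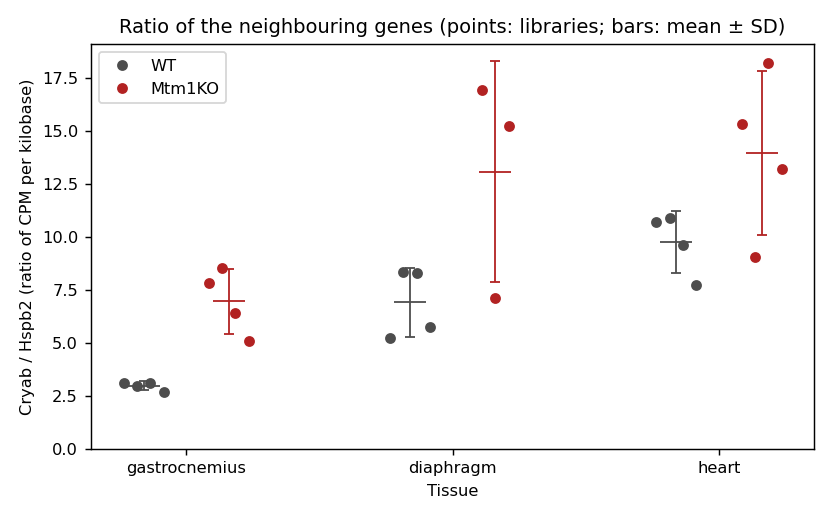
Ratio of Cryab to Hspb2, each in CPM per kilobase of exon, in the WT (grey) and Mtm1KO (red) libraries of 3 tissues, with bars for the mean and SD. The gastrocnemius groups are apart (2.69 to 3.12 against 5.06 to 8.51), and the diaphragm and heart groups overlap.

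The genes whose log2 CPM followed Cryab most closely over the 30 libraries were Xirp1 (r = 0.995), P2rx5 (0.993), Itga7 and Togaram2 (0.992 each) and Dnaja4 (0.991). Over the 8 gastrocnemius libraries they were Nes (0.993), Stat5a and Rab33b (0.992 each), Degs1 (0.991) and Cidea (0.990). For Bag3 they were Zfp251 (0.973), Gm2830 (0.965), Pcdhb4 and Fam189a2 (0.963 each) and Mast2 (0.961) over 30 libraries, and Extl1 (0.977), Chmp1a (0.968), Zfp703 and Stx4a (0.962 each) and Tmem256 (0.960) over 8. These correlations are a description, since libraries of one tissue or genotype are not independent points. Among the 10 genes themselves, the median correlation over the 8 gastrocnemius libraries was 0.78. The genotype difference and the high values of Mtm1KO library 1 enter this value. No value for all genes is set beside it.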

How the data were processed

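Poly(A) RNA of 30 samples had been sequenced after stranded library preparation. The authors trimmed reads with cutadapt 1.10, used STAR 2.5.3a for alignment to mm10, and took uniquely aligned reads into gene counts with HTSeq 0.6.1p1, per the submitters' processing notes and methods, and deposited 1 table of raw counts. Whether counting used strand is not given in the sources used here. The table holds 36103 Ensembl genes, all of which were matched to symbols, and its column names gave each library's group and number. The labels do not say that samples are separate animals. The study's methods give mice per group and not whether organs came from the same mice, and the fits across tissues treated all libraries as independent.

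Counts were analysed in R 4.3.3 with edgeR 4.0.16 (filterByExpr with a count minimum of 10, TMM scaling, the quasi-likelihood F test, p adjusted by Benjamini-Hochberg across the genes tested, called below 0.05). Separate fits compared genotypes within each tissue, 1 fit compared the WT tissues, and fits of tissue pairs tested the interaction. SE is the log2 fold change divided by the square root of its F value. DESeq2 1.42.0 was an alternative, with another scaling, no filter, each library left out, a replicate block, 1 fit of all 30 libraries, a log2 fold change threshold of 1 and hepatocyte markers removed. The genotype and interaction fits were also run on simulated counts that had the same spread for every gene of a fit. The simulated counts had no outlying libraries, so they do not bear on the reported calls. The totals of 24873817 to 44289343 counts limit precision for genes with few counts. RefSeq and Ensembl tables for GRCm38 gave coordinates, promoters and shared 50-base stretches, 50 bases being the read length. CPM per kilobase used the union of exons.

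The genes and lists were chosen with earlier results of these data known. Named genes were the 10 genes, Hspa1b, Mtm1, Alb and Adgre1, up to 4 genes with the smallest p per pathway list in gastrocnemius (the 2 most abundant where none passed), and the 5 genes most correlated with Cryab and with Bag3.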

Additional observations from a re-analysis of the deposited data

Results flagged for a closer look

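In 60 groups of 4 libraries, 4 held a library far from the rest of its group by the gap between it and its nearest neighbour, where chance gives about 1 in 20. Hspb7 stood at 2849 CPM in gastrocnemius Mtm1KO library 1, against 1549 to 1756 CPM in the other 3, and Hspa1a at 9.8 CPM in the same library, against 3.6 to 4.09 CPM. Hspb2 stood at 74 CPM in WT heart library 4, against 48.5 to 51.1 CPM, and Hspb3 at 9.57 CPM in Mtm1KO heart library 2, against 7.53 to 7.82 CPM.

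The genotype difference was unequal in heart and gastrocnemius, by edgeR's test of the interaction, for Hspb1 (heart minus gastrocnemius -1.74 on the log2 scale, adjusted p = 0.0038), Hspb7 (-1.52, adjusted p = 0.0036), Hspb8 (-0.92, adjusted p = 0.0056) and Cryab (-1.33, adjusted p = 0.0015).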

How the results depend on the processing

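The count of the 10 genes called in gastrocnemius was 6, and 4 to 7 with a library left out. In diaphragm it was 0, but 2 by DESeq2, 3 in 1 fit of all 30 libraries (Cryab, Hspb1 and Hspb8, where 1.48% of all genes were called against 0.0119% in the separate fit) and 0 to 2 with a library left out. For heart minus diaphragm it was 0, but 1 by DESeq2 and 0 to 3 with a library left out. The upper end of both ranges came without diaphragm Mtm1KO library 2, and the cause was not tested. The log2 difference of the Cryab to Hspb2 ratio in heart, 0.49, was 0.34 to 0.68 with a library left out, an alternative chosen after seeing the data.

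Bag3 in gastrocnemius lost its call in the fit of all 30 libraries (log2 fold change 0.39, adjusted p = 0.21). Deviations of same-numbered WT and Mtm1KO libraries correlated at -0.64 to 0.46, and the replicate numbers were not taken as pairs in the main fits. With so few libraries per group, these correlations cannot exclude pairing. With the replicate block, 7 genes were called in gastrocnemius (25.4% of all genes, against 29% without it), the added one being Hspb6 (0.35, adjusted p = 0.043), and 0 in the other tissues, and it changed no other genotype call of the 10 genes. Over WT tissues, 6 of 21 same-numbered pairs correlated above 0.1 (-0.10 to 0.25), and a block added after seeing the data ended 1 reported call between tissues, Hspb6 in diaphragm minus heart (0.46, adjusted p = 0.055).

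Library 3 alone as the WT diaphragm was chosen after seeing the data, and a lone library gives no spread of its own. With it, gastrocnemius minus diaphragm was -0.32 for Hspb6 and -0.17 for Bag3, and diaphragm minus heart 0.23 for Cryab, on the log2 scale.

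Signs changed only for values that were not called. Heart Cryab was -0.00 with no filter and with the replicate block, and -0.07 to 0.05 with a library left out. With a library left out, log2 values in heart ran from -0.07 to 0.02 for Bag3, -0.09 to 0.13 for Hsp90aa1, -0.07 to 0.10 for Hspb3, -0.02 to 0.16 for Hspb7 and -0.02 to 0.13 for Hspb8. In liver they ran from -0.23 to 0.49 for Bag3, -0.22 to 0.42 for Hsp90aa1, -0.38 to 0.26 for Hspa1a, -0.05 to 0.26 for Hspb6 and -0.23 to 0.06 for Hspb8. The effect in gastrocnemius minus that in diaphragm ran from -0.26 to 0.57 for Cryab, -0.65 to 0.35 for Hspb1 and -0.12 to 0.28 for Hspb8. Between WT tissues, diaphragm minus heart was -0.25 to 0.01 for Cryab and -0.09 to 0.34 for Hspb1 (-0.01 with size factors and by DESeq2), diaphragm minus liver -0.21 to 0.08 for Hspb8, and heart minus liver -0.54 to 0.08 for Hsp90aa1. Gastrocnemius minus diaphragm was -0.09 to 0.08 for Bag3 (-0.01 in the fit of all 30 libraries), -0.35 to 0.00 for Hspa1a and -0.02 to 0.20 for Hspb6, and gastrocnemius minus heart -0.26 to 0.10 for Hspb1. Genes at a few counts per library, such as Hspb3 in liver, could not be compared between genotypes at this depth.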
